A study of Mus musculus with 14 samples.

Results

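Mast cells carry the high-affinity receptor for IgE, FcεRI, together with receptors for IgG, and the genes of these receptors are described here: Fcer1a, Ms4a2 and Fcer1g, which encode the alpha, beta and gamma chains of FcεRI, and Fcgr2b and Fcgr3, which encode the IgG receptors FcγRIIB and FcγRIII. They were chosen by the gene name that the array design gives each probe, which found 5 genes among 27975 gene names on the array and 9 probes among 41174.

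The alpha chain binds IgE at the cell surface, the beta chain amplifies the signal, and the gamma chain carries the activation motif that the kinase Syk docks on. The gamma chain also serves FcγRIII, whose own ligand-binding chain is the product of Fcgr3. FcγRIIB, the product of Fcgr2b, has no gamma chain: it carries an inhibitory motif that recruits the lipid phosphatase encoded by Inpp5d and restrains degranulation when it is bound together with FcεRI.

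The study measured RNA of mouse mast cells on 14 single-colour arrays, to compare mast cells with and without the secreted phospholipase Pla2g3, an enzyme that cleaves membrane phospholipids, before and after maturation on fibroblasts. KO cocultured cells (3 arrays) carried the Pla2g3 knockout on both alleles (–/–), and WT cocultured cells (4 arrays) were wild-type (+/+). Both were bone marrow-derived mast cells (BMMCs) kept for 96 h on a layer of Swiss 3T3 cells, a mouse fibroblast line, with stem cell factor at 100 ng/ml, after which the nonadherent cells were taken at a purity given as over 99%. KO BMMCs (4 arrays) and WT BMMCs (3 arrays) are the immature cells, marrow grown for 4 to 6 weeks with IL-3 to over 97% Kit and FcεRIα double-positive cells. All 4 groups share 1 strain label, C57BL/6 and 129Sv-N3 joined by a full stop, and the source of each replicate (mouse or culture) is not given, so a p-value here reflects the spread among these samples, which may be technical. The labels give stem cell factor for the cocultured cells alone, so the factor and the fibroblasts cannot be told apart. In bulk RNA, fewer cells of a type and less RNA per cell cannot be told apart either.

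The 12 mast cell markers on the array were well above background on all 14 arrays. The Pla2g3 probe did not separate the genotypes in the direction of the labels: it averaged -2.34 ± 0.76 in KO cocultured cells (SD, n = 3), against -3.49 ± 0.97 in WT cocultured cells (SD, n = 4), and -1.59 ± 0.28 in KO BMMCs (SD, n = 4), against -3.80 ± 0.87 in WT BMMCs (SD, n = 3). Neither difference passed limma's test (adjusted p = 0.815 after and 1 before coculture, unadjusted p = 0.052 and 0.00118). The probe was above background on 3 of 3 KO cocultured and 4 of 4 KO BMMC arrays. In wild-type cells it was so on 2 of 4 cocultured and 1 of 3 BMMC arrays. Since the labels do not give the deleted stretch, the probe may lie outside it and is no check of genotype. Levels here and below are log2 values in which 0 is the 75th percentile of signal on that array. The 4 slides held the groups unevenly, and the cocultured arrays of slide 4, KO cocultured 3 and WT cocultured 3, stood apart from their own groups and nearer to those of the opposite genotype. On the second principal component KO cocultured 1 and 2 lay at -78.9 and -77.5 and KO cocultured 3 at 25.9, while WT cocultured 3 lay at -90.5 and the other WT cocultured arrays between 23.1 and 66.9. Results that rest on these 2 arrays are given with and without them.

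The probes are on the minus strand of mm9, per the scanner files. The Fcer1a probe A_51_P429770 lies at chr1:175152865-175152924 and the Ms4a2 probe A_51_P234975 at chr19:11691778-11691837. Fcer1g has A_51_P405476 at chr1:173159794-173159853 and A_51_P405478 at chr1:173159846-173159918. The Fcgr2b probes are A_51_P130095 at chr1:172890988-172891047, A_51_P130101 at chr1:172891127-172891186 and A_52_P545613 at chr1:172895833-172895892. The Fcgr3 probes are A_51_P328613 at chr1:172981647-172981722 and A_52_P408757 at chr1:172984129-172984188. All 9 were well above background on all 14 arrays with no saturated pixels, so every gene passed the filter on dim probes. The probe with the highest mean stands for a gene: the first one named for each.

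The following probes are printed because the Fcgr2b and Fcgr3 genes are close relatives whose extracellular parts are nearly alike in the mouse, so that where a probe lies bears on what its level reports. The first 42 bases of Fcgr2b probe A_51_P130101 read through the end of the coding frame to its stop codon, in capitals. The A_52_P545613 probe of Fcgr2b reads through the membrane-spanning part, which belongs to the stretch where the relatives differ. The A_52_P408757 probe of Fcgr3 reads through the extracellular part. Whether these probes also bind the relative's RNA was not tested.
Fcgr2b A_51_P130101: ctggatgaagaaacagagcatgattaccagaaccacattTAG
Fcgr2b A_52_P545613: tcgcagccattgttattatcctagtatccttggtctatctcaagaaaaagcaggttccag
Fcgr3 A_52_P408757: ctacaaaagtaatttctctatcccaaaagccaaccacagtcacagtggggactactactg

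The promoters of Fcer1a and Ms4a2 are printed because the levels of these genes moved together over the arrays and because GATA factors are known regulators of both. Each is 300 bases on the minus strand, from 250 before to 50 after the start in RefSeq on GRCm38 (Fcer1a at chr1:173227180-173227479, Ms4a2 at chr19:11623670-11623969). Capitals mark GATAA on either strand (TTATC on the other), the core that GATA factors recognise.
Fcer1a promoter: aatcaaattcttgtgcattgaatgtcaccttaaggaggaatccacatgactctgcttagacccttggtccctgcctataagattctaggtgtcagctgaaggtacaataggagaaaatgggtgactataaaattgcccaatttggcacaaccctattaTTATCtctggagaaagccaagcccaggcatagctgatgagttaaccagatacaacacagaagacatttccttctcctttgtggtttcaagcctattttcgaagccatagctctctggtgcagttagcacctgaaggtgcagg
Ms4a2 promoter: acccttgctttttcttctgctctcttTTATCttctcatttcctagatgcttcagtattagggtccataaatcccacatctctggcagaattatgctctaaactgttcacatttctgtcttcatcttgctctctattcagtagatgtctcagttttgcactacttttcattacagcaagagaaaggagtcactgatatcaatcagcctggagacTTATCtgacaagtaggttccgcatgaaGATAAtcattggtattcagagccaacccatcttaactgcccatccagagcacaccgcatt
Fcer1a held 1 match, at -92 from the start, and Ms4a2 held 3, at -224, -37 and -10. In the same window Fcer1g, Fcgr2b and Fcgr3 had 0 matches. Among 32851 promoters of the same length 25.4% held GATAA, and 0.94% held at least 3 matches. GAGGAA, a core read by PU.1 (both strands; no overlap with GATAA), occurred in the Fcer1a window at -216 and in that of Fcgr3, and in 28.3% of all promoters. A match in these letters is a description of the sequence and not a binding site.

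Fcer1a, the IgE-binding chain, was at 9.16, 8.84 and 7.59 in KO cocultured cells, against 7.97, 8.25, 8.20 and 7.92 in KO BMMCs. It was at 8.06, 7.81, 8.43 and 7.89 in WT cocultured cells, against 8.29, 8.35 and 8.57 in WT BMMCs. KO cocultured 1 and 2 were the highest of all 14 arrays and KO cocultured 3 the lowest, so that group spanned every other one. Over the groups Fcer1a averaged 8.53 ± 0.83 in KO cocultured cells (SD, n = 3), 8.05 ± 0.28 in WT cocultured cells (SD, n = 4), 8.08 ± 0.17 in KO BMMCs (SD, n = 4) and 8.40 ± 0.15 in WT BMMCs (SD, n = 3). In order of mean level KO cocultured cells came first, then WT BMMCs, KO BMMCs and WT cocultured cells; of these neighbours only WT BMMCs and KO BMMCs had no overlapping arrays, and that difference did not pass the test.

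With coculture Fcer1a differed by 0.45 in knockout cells (SE 0.33, 95% confidence interval -0.26 to 1.15, limma adjusted p = 0.397). In wild-type cells the coculture difference was -0.35 (SE 0.33, interval -1.05 to 0.35, adjusted p = 0.562). The interaction, the coculture difference in knockout cells minus that in wild-type cells, was 0.80 (interval -0.20 to 1.79, adjusted p = 0.996). None of these passed at an adjusted p under 0.05, and each interval spans 0. The sign in knockout cells turned to -0.15 with normexp background correction and to -0.0033 with the authors' normalized values.

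**Figure D1:**
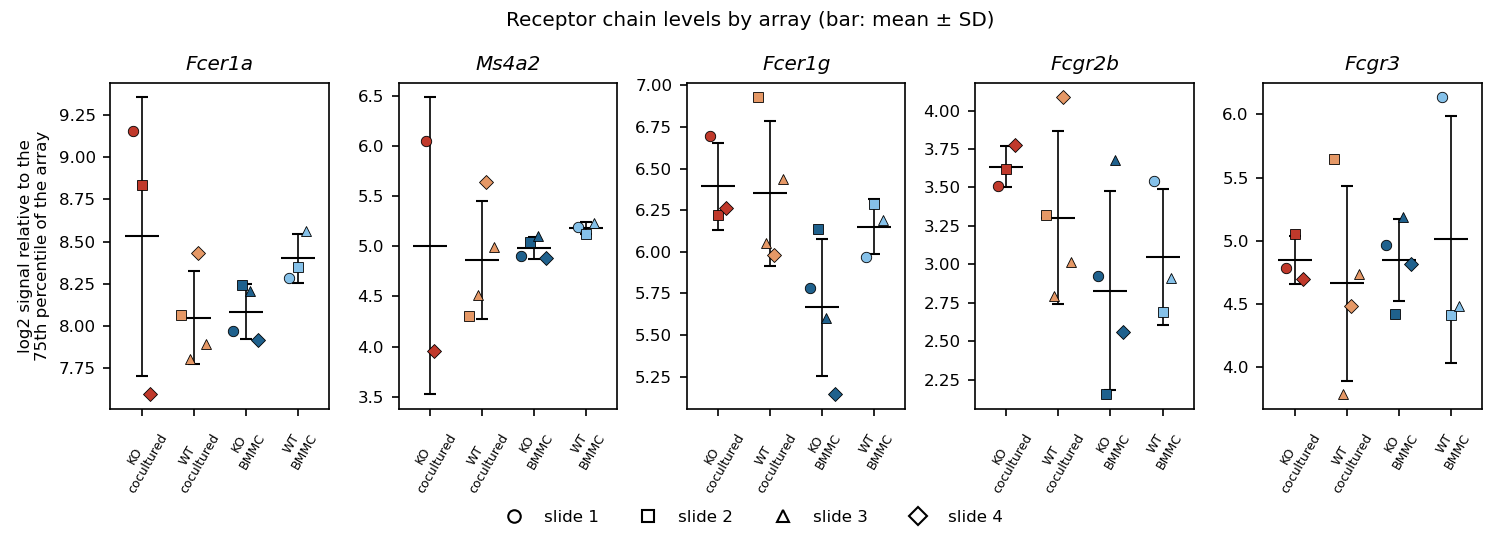
Levels of the 5 genes by array, as log2 signal relative to the 75th percentile of the array, with 1 panel per gene and the groups in the order KO cocultured, WT cocultured, KO BMMC and WT BMMC (n = 3, 4, 4 and 3; for Ms4a2 n = 2 in KO cocultured cells). Each point is an array, its shape gives the slide, and bars show mean ± SD; in the Fcer1a panel KO cocultured 3 (7.59) lies far under the other KO cocultured arrays.

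Ms4a2, the beta chain, followed Fcer1a. It was at 6.05 and 3.96 in KO cocultured cells, where the only spot of the second array carried the scanner's flag for an uneven spot and was left out, against 4.90, 5.05, 5.11 and 4.88 in KO BMMCs. It was at 4.31, 4.51, 5.64 and 5.0 in WT cocultured cells, against 5.19, 5.12 and 5.23 in WT BMMCs. KO cocultured 1 was the highest array and KO cocultured 3 the lowest, and WT cocultured 3 stood above all the BMMC arrays. The flagged spot, if kept, gives 6.18, close to KO cocultured 1.

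Cocultured cells spread more than BMMCs in Ms4a2. The gene averaged 5.01 ± 1.48 in KO cocultured cells (SD, n = 2), 4.86 ± 0.59 in WT cocultured cells (SD, n = 4), 4.98 ± 0.11 in KO BMMCs (SD, n = 4) and 5.18 ± 0.06 in WT BMMCs (SD, n = 3). In order of mean level WT BMMCs came first, then KO cocultured cells, KO BMMCs and WT cocultured cells, and all neighbours overlapped. The coculture difference of Ms4a2 was 0.02 in knockout cells (SE 0.50, interval -1.06 to 1.1, limma adjusted p = 0.983, 2 KO cocultured arrays) and -0.32 in wild-type cells (SE 0.44, interval -1.27 to 0.64, adjusted p = 0.721), neither passing the test. In knockout cells the sign turned with each of the other scalings tried.

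Over the arrays Fcer1a and Ms4a2 correlated at r = 0.88 (Pearson, 13 arrays). With the probe that stands for each gene, the other pairs among the 5 genes lay between -0.02 and 0.38. Other probes of Fcgr3 and Fcgr2b correlated with each other at up to 0.819. The arrays share the division by their own 75th percentile, and these figures are descriptions across samples of 4 groups. The genes most like Fcer1a by r were Micos13 (0.967), a mitochondrial cristae protein, the unnamed probe A_52_P1021640 (0.961 over 12 arrays) and Jkamp (0.958). For Ms4a2 they were Pycard (0.972), the inflammasome adaptor ASC, Ndufaf3 (0.970) and Taf12 (0.968), over 13 arrays.

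Fcer1g, the shared gamma chain, was at 6.69, 6.22 and 6.26 in KO cocultured cells, against 5.78, 6.14, 5.60 and 5.15 in KO BMMCs. It was at 6.93, 6.05, 5.98 and 6.44 in WT cocultured cells, against 5.97, 6.29 and 6.19 in WT BMMCs. Every KO cocultured array lay above every KO BMMC array, by a narrow margin over KO BMMC 2, while the wild-type groups overlapped. The difference in knockout cells was 0.73 (SE 0.29, interval 0.10 to 1.36, 1.66-fold), with an unadjusted p of 0.0273 and a limma adjusted p of 0.118. In wild-type cells it was 0.20 (SE 0.29, interval -0.43 to 0.83, adjusted p = 0.741).

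Fcer1g averaged 6.39 ± 0.26 in KO cocultured cells (SD, n = 3), 6.35 ± 0.43 in WT cocultured cells (SD, n = 4), 5.67 ± 0.41 in KO BMMCs (SD, n = 4) and 6.15 ± 0.17 in WT BMMCs (SD, n = 3). In order of mean level WT BMMCs came after both cocultured groups and KO BMMCs last, and all neighbours overlapped. Averaged over the genotypes, coculture gave 0.46 (SE 0.21, interval 0.02 to 0.91, adjusted p = 0.113), and with slide as a block 0.54 (adjusted p = 0.047), which passed, as did 29.7% of all genes in that fit. The second probe, A_51_P405478, gave 0.54 (adjusted p = 0.0616) without the block, and the probes correlated at r = 0.966 over 14 arrays. The closest genes by r were Por (0.974), the electron donor of cytochrome P450 enzymes, Pcbp1 (0.951 over 11 arrays) and B9d2 (0.940).

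Fcgr2b, the inhibitory IgG receptor, was at 3.51, 3.62 and 3.78 in KO cocultured cells, against 2.93, 2.16, 3.68 and 2.56 in KO BMMCs. It was at 3.32, 2.79, 4.09 and 3.01 in WT cocultured cells, against 3.54, 2.69 and 2.91 in WT BMMCs. The KO cocultured arrays sat close together and above all KO BMMC arrays but KO BMMC 3, and the wild-type groups overlapped. The 10 spots of this probe differed little within an array (SD 0.039 to 0.124), less than arrays of a group did.

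Fcgr2b averaged 3.64 ± 0.13 in KO cocultured cells (SD, n = 3), 3.30 ± 0.56 in WT cocultured cells (SD, n = 4), 2.83 ± 0.65 in KO BMMCs (SD, n = 4) and 3.05 ± 0.44 in WT BMMCs (SD, n = 3), in an order in which all neighbours overlapped. The coculture difference was 0.81 in knockout cells (SE 0.38, interval -0.02 to 1.64, limma adjusted p = 0.183) and 0.26 in wild-type cells (SE 0.38, interval -0.57 to 1.08, adjusted p = 0.749). Its probes agreed: in knockout cells A_51_P130101 gave 0.93 (adjusted p = 0.242) and A_52_P545613 1.05 (adjusted p = 0.184), and over 14 arrays the 3 probes correlated at r of 0.942 to 0.977. The genes most like Fcgr2b were Dph3b-ps (0.902), Cd84 (0.850), a surface receptor of the SLAM family, and Tomm22 (0.845).

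Fcgr3, the activating IgG receptor, was at 4.79, 5.06 and 4.70 in KO cocultured cells, against 4.97, 4.42, 5.19 and 4.82 in KO BMMCs. It was at 5.65, 3.79, 4.48 and 4.74 in WT cocultured cells, against 6.13, 4.41 and 4.49 in WT BMMCs. WT BMMC 1 was the highest array and WT cocultured 2 the lowest, and all groups overlapped. The second probe was also highest on WT BMMC 1, at 4.09, against 2.31 and 2.45 on the other WT BMMC arrays.

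Fcgr3 averaged 4.85 ± 0.19 in KO cocultured cells (SD, n = 3), 4.66 ± 0.77 in WT cocultured cells (SD, n = 4), 4.85 ± 0.33 in KO BMMCs (SD, n = 4) and 5.01 ± 0.97 in WT BMMCs (SD, n = 3). The coculture difference was -0.0033 in knockout cells (SE 0.46, interval -1.0 to 0.99, limma adjusted p = 0.997) and -0.35 in wild-type cells (SE 0.46, interval -1.34 to 0.65, adjusted p = 0.707). Without WT BMMC 1 the wild-type difference was 0.21, on the other side of 0 (adjusted p = 0.837). The closest genes were Agtrap (0.744), Arhgap30 (0.741) and Nufip2 (0.736), a weaker likeness than for the other genes.

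The Fcgr3 probes correlated with each other at r = 0.813 over 14 arrays, less closely than the probes of Fcer1g or Fcgr2b did. Probe A_52_P408757 of Fcgr3, in the extracellular part, correlated with the Fcgr2b probes at 0.676 to 0.819, and A_51_P328613 of Fcgr3 did so at 0.384 to 0.554. These are descriptions over arrays that share samples and scaling.

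**Figure D2:**
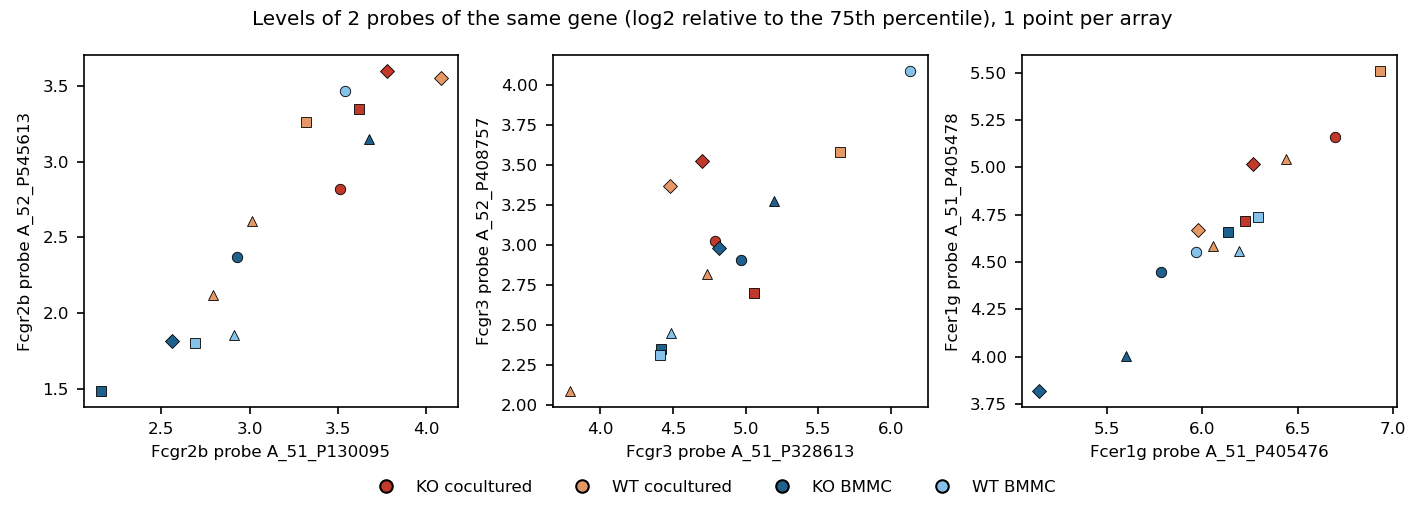
Levels of 2 probes of the same gene against each other, in log2 relative to the 75th percentile, for Fcgr2b, Fcgr3 and Fcer1g; each point is 1 of 14 arrays, coloured by group, with circle, square, triangle and diamond for slides 1 to 4. The points of Fcgr2b (r = 0.942) and Fcer1g (r = 0.966) lie close to a line, and those of Fcgr3 (r = 0.813) scatter more.

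Macrophages and other myeloid cells also carry Fcgr2b, Fcgr3 and Fcer1g. The summed level of 14 macrophage and monocyte markers was 6.05 to 10.1 in KO cocultured cells, 7.41 to 13.5 in WT cocultured cells, 7.07 to 22.8 in KO BMMCs and 4.21 to 84.8 in WT BMMCs, in multiples of the 75th percentile. WT BMMC 1, where Fcgr3 was highest, had the lowest of these sums, and WT BMMC 2 had the highest. Of these markers Adgre1 and Lyz2 were well above background on all 14 arrays, Cd68 and C1qb on 13, Cd14, Fcgr1, Marco and Lyz1 on 12, Csf1r and Ctss on 10, C1qc on 7, Msr1 on 4, Mrc1 on 1 and C1qa on 0. The part of macrophage and monocyte RNA in the levels of the IgG receptors and Fcer1g was not tested.

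Fibroblast markers were brighter as a sum in the cocultured harvest, and the source of this RNA was not tested. The sum over 18 fibroblast markers was 16.8 to 63.6 in KO cocultured cells and 17.5 to 417 in WT cocultured cells, against 2.93 to 6.0 in KO BMMCs and 2.39 to 4.18 in WT BMMCs. Cdh11 was above background on all 14 arrays, Pdgfrb and Fbn1 on 12, and Thy1 on 0. The 2 arrays of slide 4 had 63.6 (KO cocultured 3), the highest of its group, and 17.5 (WT cocultured 3), the lowest of its group. The part of fibroblast RNA in the differences between cocultured groups was not tested.

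The other marker lists were as follows. The sum over 6 basophil markers was 54.1 to 100 in KO cocultured cells, 48.3 to 88.7 in WT cocultured cells, 43.2 to 56.7 in KO BMMCs and 53.9 to 66.0 in WT BMMCs, in multiples of the 75th percentile. Cd200r3 and Il3ra were above background on 14 arrays, Mcpt8 on 13, Prss34 on 10, Ccr3 on 9 and Itga2 on 0. Mcpt8, a basophil protease, rose by 3.29 with coculture averaged over the genotypes (SE 0.34, limma adjusted p = 2.24e-05). It was the only 1 of 5 tested basophil markers to pass, beside 28.3% of all genes. The part of basophil RNA in the receptor levels was not tested. The sum over 10 B cell markers was 2.8 to 7.59 in KO cocultured cells, 3.42 to 13.8 in WT cocultured cells, 10.2 to 15.4 in KO BMMCs and 10.6 to 20.2 in WT BMMCs, with Blnk and Ighm above background on 14 arrays, Vpreb1 on 13 and Pax5, Ms4a1 and Cd79b on 0. Neutrophil markers had a sum of 5.61 on WT BMMC 2, the array with the highest macrophage and monocyte sum, and at most 0.504 on the others. Dendritic cell markers stayed at or under a sum of 5.74 on every array.

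**Figure D3:**
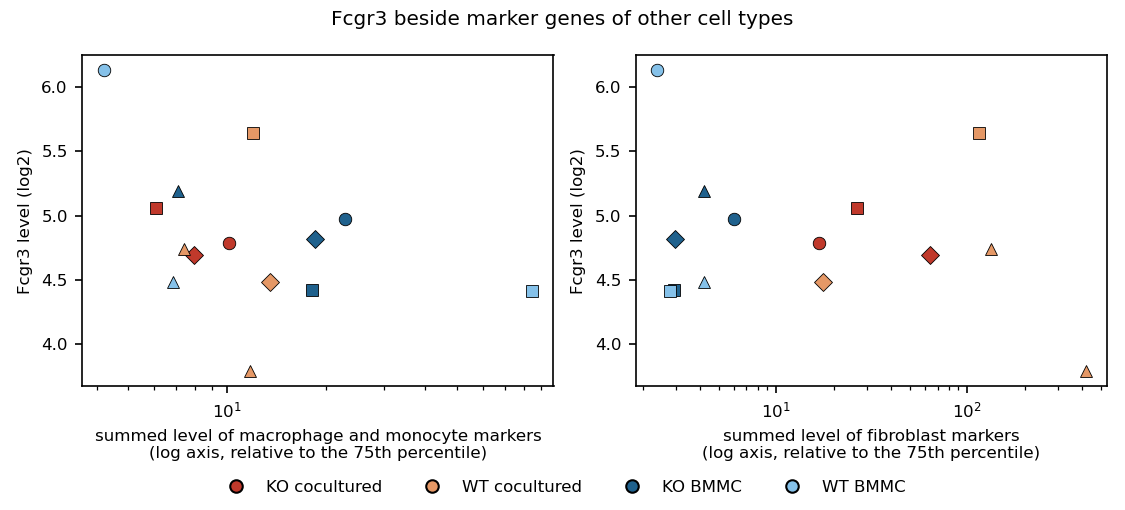
Fcgr3 level (log2 relative to the 75th percentile) against the summed level of macrophage and monocyte markers (left) and of fibroblast markers (right), both on a log axis; each point is 1 of 14 arrays, coloured by group, with circle, square, triangle and diamond for slides 1 to 4. The array with the highest Fcgr3 level, WT BMMC 1 (6.13), has the lowest macrophage and monocyte sum (4.21).

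Across the comparisons, 0 of 5 genes passed the test with coculture in knockout cells, where 14.2% of 16016 genes passed, 0 in wild-type cells, where 13% passed, and 0 with coculture averaged over the genotypes, where 28.3% passed. With an unadjusted p under 0.05 there was 1 of them, Fcer1g, in knockout cells (4668 of all genes) and again in the average (6356 of all genes). Groups did not overlap for 1 gene, Fcer1g, in knockout cells, against 28.3% of all genes, and for 0 in wild-type cells, against 25.5%. In each of these comparisons the share of receptor genes was at or below that of the array.

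KO cocultured cells were compared with WT cocultured cells, and KO BMMCs with WT BMMCs, to see what loss of Pla2g3 did. No gene on the array passed in either comparison by limma (0% of 16016 genes, with 604 genes at an unadjusted p under 0.05 after and 176 before coculture), so 0 of 5 receptor genes did. After coculture Fcer1a differed by 0.48 (interval -0.22 to 1.19, adjusted p = 0.815), Ms4a2 by 0.14 (interval -0.94 to 1.22), Fcer1g by 0.04 (interval -0.59 to 0.67), Fcgr2b by 0.33 (interval -0.50 to 1.16) and Fcgr3 by 0.18 (interval -0.81 to 1.18). The arrays of the groups overlapped for all 5, against 1.72% of genes without overlap.

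Before coculture all 5 differences were below 0: -0.32 for Fcer1a, -0.20 for Ms4a2, -0.48 for Fcer1g (interval -1.12 to 0.15), -0.22 for Fcgr2b and -0.16 for Fcgr3, each with an adjusted p of 1, beside a median of -0.10 over all genes. KO BMMCs lay below WT BMMCs without overlap for 2 genes, Fcer1a and Ms4a2, against 4.23% of all genes without overlap in either direction. On slides 1, 2 and 3, which held 1 array of each group, Fcer1a differed by -0.32, -0.10 and -0.36, Ms4a2 by -0.29, -0.08 and -0.13, and Fcer1g by -0.18, -0.15 and -0.59, below 0 on every slide. Fcgr2b differed by -0.61, -0.54 and 0.76 and Fcgr3 by -1.16, 0.01 and 0.71, so for these the slides disagreed in sign. With the authors' normalized values all 5 differences turned above 0, to 0.22 for Fcer1a, 0.33 for Ms4a2, 0.04 for Fcer1g, 0.27 for Fcgr2b and 0.37 for Fcgr3, where the median of all genes was 0.36.

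**Figure D4:**
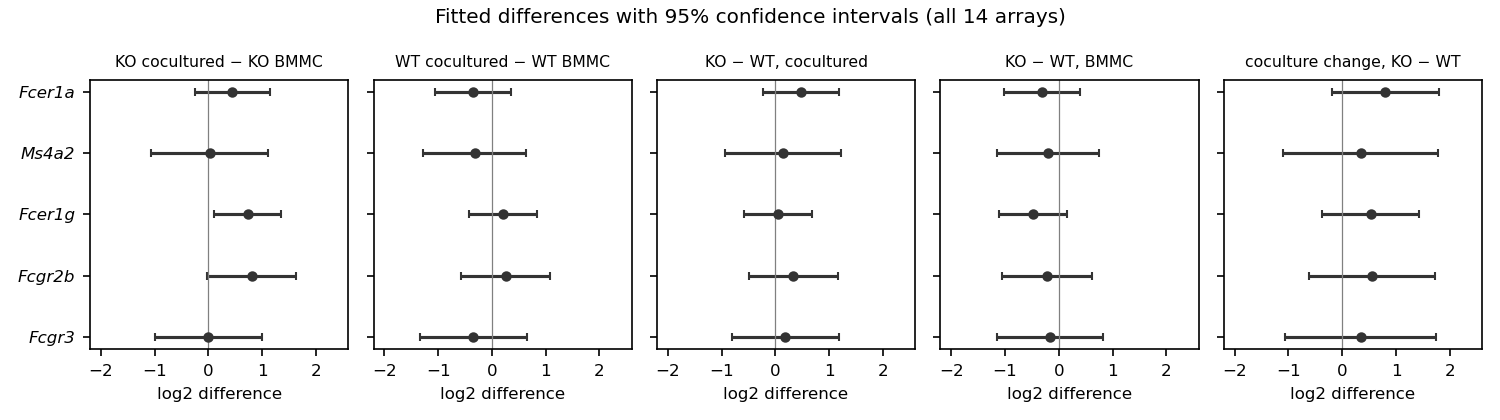
Fitted log2 differences with 95% confidence intervals for the 5 genes on all 14 arrays, with a panel each for coculture in knockout cells, coculture in wild-type cells, KO against WT cocultured cells, KO against WT BMMCs, and the interaction; the vertical line marks 0. Of the intervals drawn, that of Fcer1g with coculture in knockout cells (0.10 to 1.36) is the only one that leaves out 0, and it did not pass after adjustment (limma adjusted p = 0.118).

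The genotype comparison after coculture turned on the cocultured pair of slide 4. Within slide 2 Fcer1a was higher in KO cocultured cells by 0.77, and within slide 4 the difference was -0.84. Ms4a2 on slide 4 differed by -1.68, and slide 2 gave no value for it. Over slides 2 and 4 the difference was -0.71 and 0.28 for Fcer1g, 0.30 and -0.31 for Fcgr2b, and -0.59 and 0.21 for Fcgr3, so for all of them the slides disagreed in sign. Leaving out KO cocultured 3 and WT cocultured 3 gave Fcer1a 1.08 (SE 0.20, limma adjusted p = 0.00531) and Ms4a2 1.45 (SE 0.29, adjusted p = 0.00805), where 2 of 5 receptor genes and 25.2% of 15705 genes passed. That Ms4a2 value rests on 1 KO cocultured array, which the fit assumes to vary as the other groups do. With the flagged spot kept, and so 2 KO cocultured arrays, it was 1.51 (adjusted p = 0.00197). Since the 2 arrays were left out because they stood with the other genotype, a larger difference without them follows in part from the choice and is no independent support. In the same fit 13 of 17 fibroblast markers were lower and 0 higher in KO cocultured cells (median difference -4.01), and 1 of 12 mast cell markers was higher and 1 lower (median 0.29). The part of this difference in fibroblast markers in the Fcer1a and Ms4a2 values was not tested.

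The treatment of the signal mattered as well. Without the pair Fcer1a differed by 1.65 with median scaling (adjusted p = 0.00292, where the median of all genes was 0.61), by 0.61 with quantile normalization (adjusted p = 0.0229), by 0.12 with normexp correction (adjusted p = 0.817) and by 0.45 with the authors' values (adjusted p = 0.24). Ms4a2 differed by 2.01 (adjusted p = 0.0034), 0.78 (adjusted p = 0.114), 1.1 (adjusted p = 0.0357) and 0.91 (adjusted p = 0.0666) in that order. So Fcer1a passed with median scaling (33.3% of all genes) and quantile normalization (17.7%). It did not pass with normexp (21%) or the authors' values (17.4% of 8777 genes). With the flagged spot kept both genes passed (25.4%). For Fcer1g, Fcgr2b and Fcgr3 no call appeared without the pair in the scaling reported here.

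**Figure D5:**
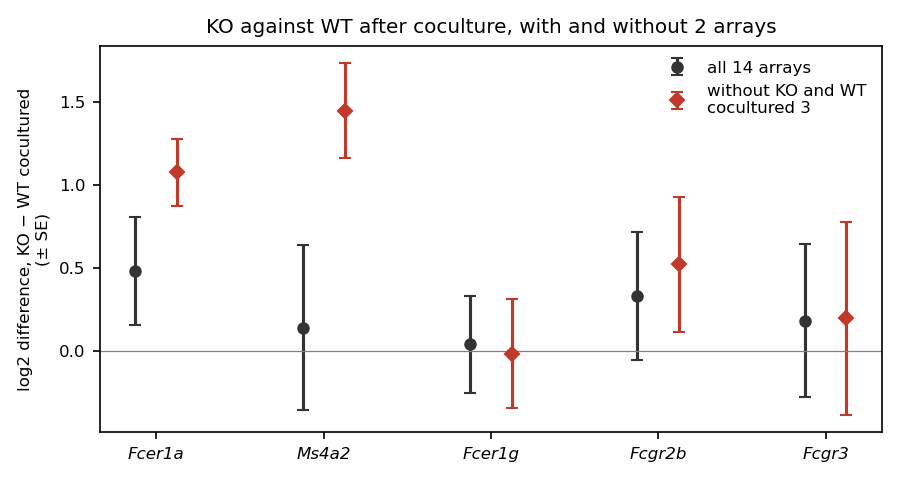
Log2 difference of KO cocultured minus WT cocultured cells (± SE) for the 5 genes, on all 14 arrays (circles) and without KO cocultured 3 and WT cocultured 3 (diamonds). Fcer1a lies at 0.48 with and 1.08 without these arrays, and Ms4a2 at 0.14 with and 1.45 without them.

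With coculture in knockout cells, the same omission gave Fcer1a 0.91 (SE 0.19, limma adjusted p = 0.00564) and Ms4a2 1.07 (adjusted p = 0.0174), so 2 of 5 genes passed where 31.3% of all genes did. The Ms4a2 value has 1 KO cocultured array behind it here too, and its spread comes from the other groups; with the flagged spot kept it was 1.13 (adjusted p = 0.00286). Leaving out KO cocultured 3 alone gave Fcer1a the same difference (adjusted p = 0.0216, 19.5% of genes passing), and Ms4a2, again with 1 KO cocultured array, did not pass (adjusted p = 0.098). Within slides 1, 2 and 4 Fcer1a differed by 1.19, 0.59 and -0.32. For the interaction the omission gave 1.39 for Fcer1a (adjusted p = 0.0125) and 1.65 for Ms4a2 (adjusted p = 0.019, on the same lone array, and 1.71 with the flagged spot kept), with 12.6% of all genes passing. In these 2 comparisons both genes passed also with the flagged spot kept (31.4% of all genes in knockout cells and 12.9% for the interaction) and with median scaling (24.2% and 16.4%). Neither passed with quantile normalization (22.2% and 5.97%), with normexp correction (31.6% and 0.357%) or with the authors' values (22.2% and 12.7%). In wild-type cells, where 23.8% of all genes passed without the pair, none of the 5 genes did.

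Weighting each array by its fit (limma's array weights) in place of leaving arrays out put the lowest weights on the same pair, 0.133 on KO cocultured 3 and 0.169 on WT cocultured 3. The weights come from how far arrays depart from their groups in these same data, so the calls are no independent support. With coculture in knockout cells 4 of 5 genes then passed, where 45.7% of all genes did. After coculture Fcer1a (0.99, adjusted p = 0.00103) and Ms4a2 (1.05, adjusted p = 0.0202) passed for knockout against wild-type, where 50.1% of all genes did, and the same 2 genes passed for the interaction, where 25.3% did.

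Of 21 tested genes of proximal IgE receptor signalling, 4 rose, 3 fell and 14 did not pass with coculture averaged over the genotypes, a share near the 28.3% of all genes that passed. Their median difference was 0.04, beside 0.01 over all genes. Of 17 fibroblast markers 15 rose in the same comparison, and the part of fibroblast RNA in the changes of these lists was not tested. Fyn, a Src-family kinase, rose by 1.98 (limma adjusted p = 0.000588). Lat, the adaptor that assembles the signalling complex, rose by 0.92 (adjusted p = 0.0264). Pik3cd, the leukocyte catalytic subunit of phosphoinositide 3-kinase, fell by 2.31 (SE 0.19, adjusted p = 4.17e-06), to 2.96 ± 0.34 in KO cocultured cells (SD, n = 3) and 3.24 ± 0.31 in WT cocultured cells (SD, n = 4), against 5.32 ± 0.41 in KO BMMCs (SD, n = 4) and 5.50 ± 0.11 in WT BMMCs (SD, n = 3).

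Of 14 negative regulators of the signal 2 rose and 4 fell (median -0.002) with coculture averaged over the genotypes, where 28.3% of all genes passed. Spred1, an inhibitor of the Ras pathway, rose by 1.18 (limma adjusted p = 0.000127), and Rabgef1, a Rab5 exchange factor that restrains mast cell activation, rose by 2.38 (adjusted p = 0.0027). Pag1, the membrane adaptor that recruits Csk, fell by 2.26 (adjusted p = 0.000727), and Dok2, an adaptor, fell by 1.29 (adjusted p = 0.0202).

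In a list of inhibitory receptors 11 genes were tested, of which 2 rose and 1 fell (median 0.16), beside 28.3% of all genes that passed. Cd33, a sialic acid-binding lectin, rose by 1.79 (limma adjusted p = 3.81e-05), and Ceacam1, a cell adhesion receptor, rose by 2.66 (adjusted p = 0.000202). Cd300lf fell by 1.28 (adjusted p = 0.00663).

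Among 5 other Fc receptors and relatives that could be tested, of 12 listed, 0 rose and 2 fell (median 0.12). Of all genes 28.3% passed in this comparison. Fcgr1, the high-affinity IgG receptor, fell by 2.93 (SE 0.56, limma adjusted p = 0.00198) to -3.03 ± 1.27 in KO cocultured cells (SD, n = 3) and -4.25 ± 1.77 in WT cocultured cells (SD, n = 4), against -1.13 ± 0.36 in KO BMMCs (SD, n = 4) and -0.28 ± 0.47 in WT BMMCs (SD, n = 3). It was above background on 2 of 4 WT cocultured arrays and on every array of the other groups, and with normexp correction its difference was -0.77 (adjusted p = 0.0211). Trim21, the antibody receptor of the cytosol, fell by 0.96 (adjusted p = 0.0266). Fcgr1 is also 1 of the macrophage and monocyte markers, of which 12 were tested, 2 rose (Cd14 and Cd68) and 2 fell (Fcgr1 and Marco).

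Of 8 tested genes in a list of activating adaptor chains and receptors 3 rose and 0 fell (median 0.93), where 28.3% of all genes passed. Clec4d, a C-type lectin that pairs with the gamma chain, rose by 4.62 (limma adjusted p = 0.00143). It was above background on 3 of 4 KO BMMC and 1 of 3 WT BMMC arrays, and on every cocultured array. Clec4e, the lectin Mincle, another partner of the gamma chain, passed as higher (adjusted p = 0.00166), and was above background on 3 of 3 KO cocultured and 4 of 4 WT cocultured arrays, against 0 of 4 KO BMMC and 1 of 3 WT BMMC arrays. In knockout cells alone it was at least 49.1-fold higher after coculture, against the lowest signal called above background (adjusted p = 0.0102). Pira6, an activating immunoglobulin-like receptor, rose by 1.60 (adjusted p = 0.0285).

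The beta chain belongs to the MS4A family of membrane proteins, of which 6 others were tested. Of these 2 rose and 0 fell (median 1.01), beside 28.3% of all genes that passed. Ms4a4d was above background on no BMMC array and at least 2.06-fold higher after coculture, against the lowest signal called above background (limma adjusted p = 0.00154). Ms4a7 rose by 2.13 (adjusted p = 0.0185), a size that rests in part on dim values. It was above background on 2 of 4 KO BMMC and 1 of 3 WT BMMC arrays, and on every cocultured array.

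Of 18 regulators of the receptor genes 2 rose and 4 fell (median -0.17), where 28.3% of all genes passed. Gata1, a GATA factor of the mast cell lineage, fell by 2.02 (SE 0.17, limma adjusted p = 3.46e-06), to 1.18 ± 0.37 in KO cocultured cells (SD, n = 3) and 1.12 ± 0.22 in WT cocultured cells (SD, n = 4), against 3.23 ± 0.23 in KO BMMCs (SD, n = 4) and 3.11 ± 0.08 in WT BMMCs (SD, n = 3). Tal1, a partner of GATA factors, fell by 0.88 (adjusted p = 0.0057), and Nfyc, a subunit of the CCAAT-binding factor NF-Y, rose by 0.83 (adjusted p = 0.0125). Mzf1, a zinc finger factor, was above background on no cocultured array and at least 2.08-fold lower after coculture (adjusted p = 0.000233). Fcer1a and Ms4a2 did not pass in the same comparison (0.05 and -0.15, adjusted p = 0.906 and 0.784). Gata2, of the same list, averaged 6.69 ± 0.27 in KO cocultured cells (SD, n = 3) and 7.02 ± 0.63 in WT cocultured cells (SD, n = 4). It averaged 7.25 ± 0.28 in KO BMMCs (SD, n = 4) and 7.46 ± 0.17 in WT BMMCs (SD, n = 3). The part of GATA factors in the Fcer1a and Ms4a2 levels was not tested.

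Of 22 genes of these lists that the naming rule picked, 10 kept their call in every alternative that measured them and 0 turned sign. Ceacam1 lost it with the mean of its probes, Clec4e, Fyn and Pag1 with the authors' values, Ms4a4d and Mzf1 with normexp correction, and Nfyc with median scaling, while Dok2, Lat, Ms4a7, Pira6 and Trim21 lost it in 4, 6, 4, 8 and 4 settings. Normexp correction added an offset of 50 units, which by itself shrinks log2 differences of dim probes. With it the differences kept their sign but were smaller by over 1.5 times for Clec4d (2.0), Fyn (1.08), Ms4a7 (0.56), Nfyc (0.48), Pag1 (-0.88), Pira6 (0.59) and Trim21 (-0.48), besides Fcgr1. The same held for the genes above with bounds, Clec4e (1.98), Ms4a4d (0.52) and Mzf1 (-0.11). The authors' values gave larger differences for Cd33 (4.17) and Ceacam1 (4.78) and smaller ones for Clec4e (2.75), Pag1 (-0.54) and Pira6 (0.59), the mean of probes gave Ceacam1 1.3 and Pag1 -0.88, and array weights gave Dok2 -0.67. In the comparisons of genotypes 0 genes of any list passed on all arrays.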

How the data were processed

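RNA of the 14 samples (450 ng each) was hybridised to single-colour Agilent arrays. Per the file headers, the authors' deposited scanner files hold spot intensity values from Agilent Feature Extraction 9.5.1.1 with probe positions on mm9; scaling between arrays is not given in the sources used here. A second deposited file, the authors' list of annotated probes (25193), has raw intensity values equal to the scanner's within 1 unit. Its normalized values are the raw values minus a constant for each array (67 to 172). A subtraction leaves differences in brightness between arrays unscaled. With these values the median difference of all genes was 0.36 for KO against WT BMMCs and -0.54 for the interaction. In the main fit it was -0.095 and 0.122. The normalized values served as an alternative, floored at 10 units. Columns of per-sample values that were not used number 14.

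Log2 of the processed signal was taken and the array's own 75th percentile (69.9 to 176 units) subtracted. Control spots and outlier-flagged spots (74 to 326 per array) were left out and spots of a probe averaged. Between 17691 and 23023 probes per array were well above background, 43.0% to 55.9%, and 0 to 3 spots were saturated; the number of arrays limits the precision. Kept were probes that 3 or more arrays placed well above background, with at least 2 values per group, or 1 in fits that leave out arrays (23593; 32 were dropped for missing values), and the one with the highest mean stood for each of 16016 genes. Of 41174 probes, 24844 were named by accession and 7855 by symbol or synonym in a RefSeq table; 8475 kept the file's name. Promoters came from RefSeq on GRCm38, and motifs were searched on both strands.

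Differences were tested two-sided with limma 3.58.1 in R 4.3.3 (with the data.table package, version 1.17.8), in 1 fit of 4 groups with 6 contrasts, adjusted by Benjamini-Hochberg over all genes, with calls at 0.05. "Rose", "fell" and "passed" refer to that threshold. The test was tried on simulated data of 15736 genes, with 200 of them changed in each comparison. Depending on the comparison, it recovered 7% to 16% of changes of 1 log2 and 50% to 66% of changes of 2 log2. A gene that did not pass may therefore still differ. With coculture far more genes passed in the data (2272 in knockout cells), so these rates need not hold there. Alternatives covered scaling, background correction (normexp, with an offset of 50 units), the authors' values, filters, probes, slide, replicate number, array weights and omitted arrays. Genes were named by rule: all 5 receptor genes, Pla2g3, up to 4 passing genes per list by adjusted p, and for each receptor gene the 3 with the highest r. The members and lists were chosen with earlier results of these data known. KO and WT BMMC arrays of equal number shared a slide and deviated together from their group means (r = 0.20, 0.50 and 0.49 across genes). A shared slide and paired samples cannot be told apart here. WT BMMC 1 was most like KO BMMC 4, on another slide (r = 0.36). Arrays of equal number did not deviate together in the other comparisons (r of -0.55 to 0.12). Results that need an item withheld for evaluation are not reported here.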

Additional observations from a re-analysis of the deposited data

How the results depend on the processing

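On all arrays, 0 of 5 receptor genes passed in each of 6 comparisons, and the count stayed at 0 with the other scalings, the authors' values, the replicate block, the choices of probe and filter, the random slide block and the kept outlier flags. Slide as a block gave 1 call with coculture averaged over the genotypes (Fcer1g). Array weights gave 4 calls with coculture in knockout cells, Fcer1a (0.80), Ms4a2 (0.89), Fcgr2b (0.88) and Fcer1g (0.55), and 2 calls each, Fcer1a and Ms4a2, for knockout against wild-type after coculture and for the interaction. Without the cocultured pair of slide 4 Fcer1a passed in these comparisons, and Fcer1g, Fcgr2b and Fcgr3 did not. Other settings with that omission are given for Fcer1a and Ms4a2 only. Fcer1a passed in each comparison with the flagged spot kept or with median scaling. With quantile normalization it passed for knockout against wild-type after coculture alone. It passed in none with normexp correction or the authors' values. Ms4a2 passed in each with the flagged spot kept, on 2 KO cocultured arrays, and in none with the authors' values. The combinations of that omission with another scaling, and the kept outlier flags, were chosen after seeing the data. Leaving out single arrays gave counts of 0 to 1 with coculture in knockout cells (1 without KO cocultured 3) and 0 in the other comparisons. The cause of these changes was not tested.

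The differences below changed sign, none of them a call in either setting; on all arrays they lay as far from 0 as 0.80 (Fcer1a), 0.55 (Fcgr2b) and 0.53 (Fcer1g), all for the interaction. Normexp background correction turned the sign for coculture in knockout cells (Fcer1a -0.15, Ms4a2 -0.0981), coculture averaged (Fcer1a -0.18), knockout after coculture (Fcer1a -0.17, Fcer1g -0.50, Fcgr2b -0.20, Fcgr3 -0.34, Ms4a2 -0.0417) and the interaction (Fcer1g -0.13, Fcgr2b -0.10, Fcgr3 -0.30, Ms4a2 -0.0278). The authors' normalized values turned the sign for coculture in knockout cells (Fcer1a -0.0033, Ms4a2 -0.0358), coculture in wild-type cells (Fcer1a 0.14, Fcgr3 0.13, Ms4a2 0.16), coculture averaged (Ms4a2 0.0613), knockout after coculture (Fcer1g -0.36, Fcgr2b -0.034, Fcgr3 -0.21), knockout before coculture (Fcer1a 0.22, Fcer1g 0.04, Fcgr2b 0.27, Fcgr3 0.37, Ms4a2 0.33) and the interaction (Fcer1a -0.14, Fcer1g -0.40, Fcgr2b -0.30, Fcgr3 -0.58, Ms4a2 -0.19). Normexp background correction without the cocultured pair of slide 4 turned the sign for coculture in knockout cells (Fcer1a -0.034). Median scaling turned the sign for coculture in knockout cells (Fcgr3 0.027, Ms4a2 -0.0403) and coculture averaged (Fcer1a -0.0286). Mean of kept probes turned the sign for coculture in knockout cells (Fcgr3 0.10). The replicate number as a block turned the sign for coculture in knockout cells (Fcgr3 0.0038, Ms4a2 -0.0289) and knockout after coculture (Fcer1g -0.0291). The cocultured pair of slide 4 left out turned the sign for coculture in knockout cells (Fcgr3 0.0721), coculture in wild-type cells (Fcgr2b -0.005), coculture averaged (Ms4a2 0.25) and knockout after coculture (Fcer1g -0.0159). Array weights turned the sign for coculture in knockout cells (Fcgr3 0.18), coculture in wild-type cells (Fcgr2b -0.0237) and coculture averaged (Ms4a2 0.26). Quantile normalization turned the sign for coculture in knockout cells (Ms4a2 -0.39), coculture averaged (Fcer1a -0.0769), knockout after coculture (Fcer1g -0.18, Fcgr3 -0.0059, Ms4a2 -0.0551), knockout before coculture (Fcer1a 0.0226, Fcgr3 0.0221) and the interaction (Fcgr3 -0.028, Ms4a2 -0.0414). Slide as a block turned the sign for coculture in knockout cells (Ms4a2 -0.11), knockout after coculture (Fcer1g -0.0171, Fcgr3 -0.12, Ms4a2 -0.10) and the interaction (Fcgr3 -0.01). Slide as a random block turned the sign for coculture in knockout cells (Ms4a2 -0.0139). Outlier flags kept turned the sign for coculture averaged (Ms4a2 0.0474).

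Leaving out each array in turn, values that crossed 0 ranged as follows: coculture in knockout cells (Fcgr3 -0.15 to 0.11, Ms4a2 -1.02 to 1.07), coculture in wild-type cells (Fcgr2b -0.005 to 0.50, Fcgr3 -0.68 to 0.21), coculture averaged (Fcer1a -0.11 to 0.28, Fcgr3 -0.34 to 0.11, Ms4a2 -0.67 to 0.38), knockout after coculture (Fcer1g -0.11 to 0.24, Fcgr3 -0.11 to 0.51, Ms4a2 -0.91 to 1.19), knockout before coculture (Fcgr2b -0.50 to 0.0273, Fcgr3 -0.46 to 0.40) and the interaction (Fcgr3 -0.22 to 0.67, Ms4a2 -0.71 to 1.39). The Ms4a2 values without KO cocultured 1 or 3 rest on 1 KO cocultured array.

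Counts over all genes moved by over 1.5 times in some settings. With coculture in knockout cells 2272 genes passed, against 1423 with median scaling, 901 with normexp, 1046 with the authors' values (8777 genes tested), 1374 with no filter, 1232 with the replicate block, 4921 without the pair, 7319 with weights, 1087 without KO cocultured 1, 1330 without KO BMMC 1 and 1339 without KO BMMC 2. In wild-type cells 2087 passed, against 903, 1108, 3744 and 5113 with normexp, the authors' values, the omission and weights, and 1221, 1172 and 1149 without WT BMMC 1, 2 and 3 in turn. With coculture averaged it was 4533, against 2347 with normexp, 2269 with the authors' values and 7469 with weights. For knockout against wild-type after coculture it was 0, against 3956 without the pair and 8017 with weights; before coculture 0, against at most 2 under any setting (2 with weights and 2 without KO BMMC 3); and for the interaction 0, against 1986 and 4058. Median scaling moved the median difference of all genes after coculture to 0.30, against 0.03. The replicate block gave 0 calls among the receptor genes in every comparison, including KO against WT BMMCs, where arrays of equal number share a slide.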

Other observations

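Without the cocultured pair of slide 4, 17 of 81 genes in the 7 lists around the receptors passed between KO cocultured and WT cocultured cells, which is 21%, beside 25.2% of all genes, so the counts that follow are no result about these genes. Of 8 tested genes in the list of activating adaptor chains and receptors 3 were higher and 0 lower in KO cocultured cells, with a median difference of 1.42. Of 11 tested genes in the list of inhibitory receptors 2 were higher and 0 lower (median 0.76). Of 12 negative regulators of the signal 2 were higher and 1 lower (median -0.07). Proximal signalling had 1 higher and 1 lower of 21, other Fc receptors 1 and 1 of 5, regulators of the receptor genes 2 and 3 of 18, and the MS4A family 0 and 0 of 6. With all 14 arrays none of these genes passed, and since the omission was chosen because these 2 arrays stood with the opposite genotype, the counts are a description.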
